A study of Mus musculus with 81 samples.

Results

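P4 and P5 are the EGFP-positive germline cells of the mouse fetal testis at E18.5, separated by side scatter in the cell sorter, P4 being the low and P5 the high fraction. Their mERV RNA was compared in the F3 generation of the TBT lineage, with 5 P5 and 5 P4 libraries numbered 5 to 9, that is 10 of the 81 labelled libraries of the series. Each number gave 1 pair of P4 and P5. All annotated LTR loci were included, 970384 loci of 680 species, and 406309 of them held at least 1 read in the 10 libraries. All mice were of the OG2 strain, which carries an EGFP transgene under Pou5f1 regulatory sequence on a C57BL/6J background, so that EGFP marks germ cells. F0 dams of the TBT lineage had received 50 nM tributyltin (TBT) in drinking water from before mating until weaning, and their F3 descendants were not themselves exposed. The F3 DMSO lineage descends from dams given 0.1% DMSO, the vehicle, with 4 pairs of P4 and P5 libraries. Libraries of the F1 generation, at the same age, are set beside these. F1 fetuses are offspring of the F0 dams, so those of the TBT lineage were themselves exposed in utero. The labels do not say whether the libraries of a group came from separate animals or litters, so the p-values measure the spread between these libraries only.

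Endogenous retroviruses (mERVs in the mouse) are remnants of germline retroviral infections. A full copy has an internal region (names ending in -int or _I) that once coded for viral proteins, between long terminal repeats (LTRs) that hold the promoter. Many copies are now solitary LTRs. Families differ in age: IAP, ETn, RLTR10 and MMERVK10C are young ERVK elements of which many copies can still be transcribed, whereas MLT1 and other MaLR elements are ancient. In late fetal life male germ cells are arrested prospermatogonia. They regain DNA methylation at this stage, and the piRNA pathway directs it to young retroviral copies. Oligo(dT) libraries also catch introns of nascent transcripts, so an LTR in an intron reports RNA of its host gene as well as RNA started in the LTR. LTR loci outside annotated genes carry less of this.

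RLTR10-int copies gave the largest differences between P5 and P4 among single loci. Of the 8 loci with the largest fold change among those higher in all 5 pairs, 3 were RLTR10-int fragments outside annotated genes. They are shown because they carry these differences. Each lies beside an RLTR27 LTR and further RLTR10-int sequence. The longest stretches common to the 3 copies are 2 of 23 bases each, and capitals mark the one nearer the 5′ end. The sequences are those of the GRCm38 assembly, 5′ to 3′ on the plus strand.
RLTR10-int, chr15:45476956-45477149: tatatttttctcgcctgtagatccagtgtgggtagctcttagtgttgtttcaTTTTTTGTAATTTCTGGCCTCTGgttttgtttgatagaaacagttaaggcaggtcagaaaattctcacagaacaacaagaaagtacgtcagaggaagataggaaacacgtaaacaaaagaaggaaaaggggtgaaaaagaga
RLTR10-int, chr19:9597808-9597998: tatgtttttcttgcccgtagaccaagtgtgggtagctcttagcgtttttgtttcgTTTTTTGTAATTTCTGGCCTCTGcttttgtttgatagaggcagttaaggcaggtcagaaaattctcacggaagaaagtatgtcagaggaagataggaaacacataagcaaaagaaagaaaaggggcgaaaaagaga
RLTR10-int, chr8:5773275-5773471: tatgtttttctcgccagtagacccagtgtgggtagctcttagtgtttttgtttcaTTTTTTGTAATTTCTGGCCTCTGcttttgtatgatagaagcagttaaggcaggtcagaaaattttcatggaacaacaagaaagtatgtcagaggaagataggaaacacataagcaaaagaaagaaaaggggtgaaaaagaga
The 3 copies were 87.4% to 91.9% identical in pairwise alignment, with the copies on chromosomes 15 and 19 the least alike. The capitalised stretch, on either strand, occurred in 39 of 2610 RLTR10-int loci (1.49%) and in 12 loci of other species. It marks a subset of copies and was not examined as a binding site. The other stretch, looked up after the data were seen, occurred in 38 RLTR10-int loci, 27 of which hold both.

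The copy on chromosome 15 was read in all P5 libraries at 73.7, 37.6, 12.8, 64.1 and 61.8 CPM in pairs 5 to 9, and in P4 only in library 8, at 0.932 CPM. Summed over the groups, 4 reads of 20279582 in P4 stood against 681 of 18956053 in P5, a ratio of 182 (95% exact interval 70.8 to 670). In the paired limma fit the locus had an FDR of 3.01e-07, with equal weights for the pairs 0.0267, and in edgeR's quasi-likelihood test on recovered reads 3.39e-05. The copy on chromosome 19 had 1.91, 19.15, 9.95, 68.1 and 26.4 CPM in P5 and 2 reads in P4, both in library 8. Its ratio of reads was 215 (59.1 to 1782), and with equal weights its FDR was 0.0504. The copy on chromosome 8 had 43.05, 18.9, 4.49, 35.2 and 24.3 CPM in P5 and 2 reads in P4, again both in library 8. Its ratio was 172 (47.1 to 1424), with an FDR of 0.0267 under equal weights. P4 and P5 did not overlap at any of the 3 copies, and the lowest P5 library was number 7 on chromosomes 15 and 8 and number 5 on chromosome 19. In the weighted fit the FDR of the 3 copies was between 0.1004 and 0.104 without replicate 9, and 0.00358 at each without replicates 5 and 9 together. The intervals cover counting error only. The copies averaged 0.186, 0.0932 and 0.0932 CPM in P4, so they passed the minimum mean for testing through P5 alone. They were also chosen for their fold change, so their FDRs are descriptions. Because the copies are alike, a read may have been given to a neighbouring copy of the family, so each value belongs to the family more firmly than to the position.

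**Figure D1:**
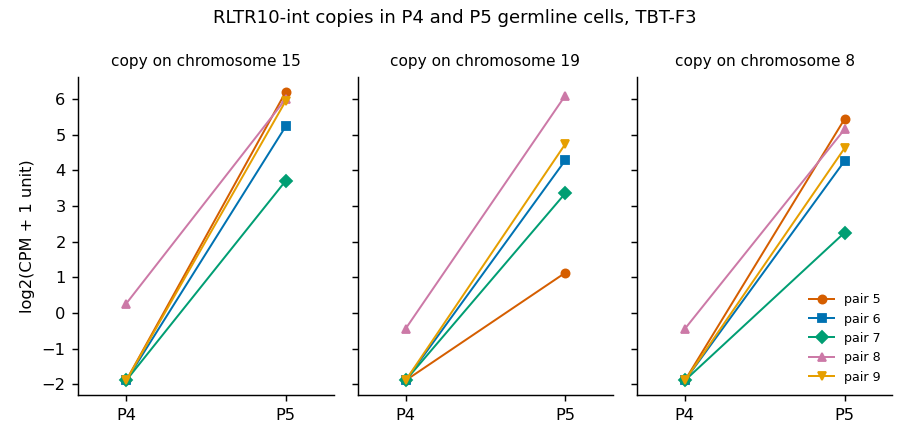
Signal of the 3 RLTR10-int copies in P4 and P5, as log2(CPM + 1 unit), where 1 unit is 0.2692 CPM. Each line joins the P4 and P5 library of 1 pair, and all 5 pairs rise at each copy, from 0 or near 0 in P4.

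Over all 39 RLTR10-int loci that hold the stretch, the summed signal was 19.0, 6.63, 14.3, 17.7 and 36.7 CPM in P4 and 307, 256, 119.9, 725 and 464 CPM in P5, with means of 18.9 and 374. The stretch was taken from copies chosen for their difference, so this sum is a description. Without those 3, a choice made after seeing the data, the other 36 loci summed to 19.0, 6.63, 14.3, 15.8 and 36.7 CPM in P4 and 188, 180.0, 92.6, 558 and 352 CPM in P5, with means of 18.49 and 274 and no overlap. The 2571 RLTR10-int loci without it summed to a mean of 638 CPM in P4 and 1856 in P5. They did not overlap either, with 446 to 824 CPM in P4 and 976 to 2805 in P5. Outside genes, the 36 loci with the stretch went from a mean of 18.2 to 354 CPM and the 1982 loci without it from 121 to 1092. Both sets were higher in every pair outside genes, and neither overlapped between P4 and P5. The 38 loci with the other stretch went from a mean of 24.0 to 390 CPM. The copies on chromosomes 15, 19 and 8 had no read in any of the 5 P6 libraries of the lineage, the EGFP-negative somatic cells. In the F3 DMSO lineage the same 3 copies were higher in P5 in 4 of 4 pairs, with means of 0.978 and 77.7 CPM on chromosome 15.

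The libraries differed in depth. Of the 10, P4 libraries 5 and 9 held 833449 and 1187234 reads at LTR loci and P5 library 5 held 246520, whereas the other 7 held between 3549702 and 7216887. The fit gave each pair a weight, and pair 6 carried 66.8% of the weight over loci, 58.7% over species and 72.8% over genes. For loci, species, families and genes, counts with equal weights and by the quasi-likelihood test are given as well. The germ cell label was checked by signal at LTR loci in 20 germ cell marker genes: its sum had a median of 17673 CPM in P4, 10369 in P5 and 53.4 in P6. None of the 20 was at 0 in all 10 libraries. The sum was lower in P5 in 4 of 5 pairs. The pairs were also shifted as a whole. The median log2 difference of P5 minus P4 over all tested genes was 0, 0.075, -0.03, 0.098 and 2.46 in pairs 5 to 9, over tested loci 0, -0.0024, 0, -0.13 and 2.91, and over species totals -1.20, 0.044, -0.23, 0.21 and 0.86. In pair 9, 81.5% of all genes and 78.8% of all loci were higher in P5, so in that pair a feature more often met the sign for higher than for lower in the counts of all 5 pairs. In bulk samples, fewer cells of a type and less RNA per cell cannot be told apart.

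A larger share of the P5 reads came from LTR loci outside annotated genes. The share was 31.1, 6.44, 6.06, 11.2 and 11.9% in P5 libraries 5 to 9 and 11.4, 2.05, 2.79, 3.22 and 12.1% in P4. The 3 libraries with the fewest reads held 3 of the 5 highest shares, and their part in the result was not tested. P5 was higher in 4 of 5 pairs, by 7.01 ± 7.66 percentage points on average (SD, n = 5 pairs; two-sided exact permutation p = 0.125, where 0.0625 is the smallest that 5 pairs allow). Without replicate 5 the mean difference was 3.85 points, and in pair 9 the difference was -0.24 points. In the other 3 groups the ranges of P4 and P5 did not overlap: P4 held 2.58 to 5.10% and P5 6.12 to 27.9% in the F3 DMSO lineage, 1.83 to 2.38% and 4.57 to 7.34% in the F1 TBT lineage, and 2.13 to 2.51% and 3.84 to 6.18% in the F1 DMSO lineage. P6 cells of the F3 TBT lineage held 1.19 to 1.52%.

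**Figure D2:**
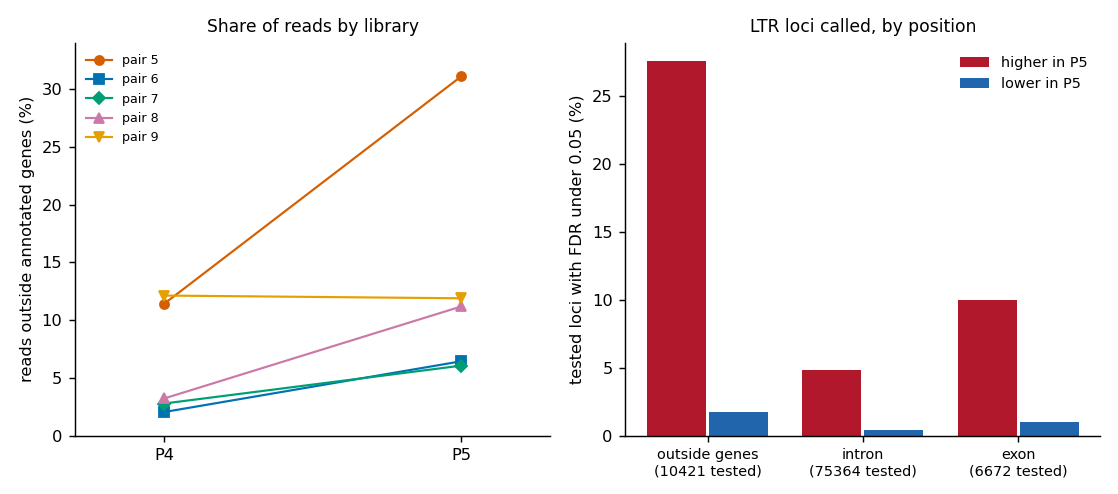
Left, percentage of reads at LTR loci that fell outside annotated genes in each library, with lines joining the 2 libraries of a pair. Right, percentage of tested LTR loci with an FDR under 0.05 by position, higher in P5 in red and lower in blue; 27.5% of loci outside genes were higher, against 4.85% in introns and 9.98% in exons, but a locus outside genes could pass the minimum through P5 alone, so the shares are no comparison of positions.

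The sum over all loci of a species does not depend on which copy of that species a read was assigned to. Of 648 species with a mean of at least 20 units (1 unit being the median over libraries of the value of 1 read, 0.2692 CPM), 70 were higher in P5 (10.8%) and 2 lower (0.309%) at an FDR under 0.05. Of these, 29 were higher in all 5 pairs (4.48%) and 0 lower in all 5 pairs (0%), or 34 and 1 relative to the median species of each pair. With equal weights 5 were higher, and 11 in the quasi-likelihood test. The median log2 fold change of all species was 0.04. In 5 of the 70 higher species the mean CPM over the P5 libraries was below that over P4. These means, unlike the fit, are unweighted and not on the log scale. Internal regions had 32 of 134 higher, 20 of them in 5 of 5 pairs, and they held all 5 calls of the equal weights and all 11 of the quasi-likelihood test. Among LTRs 38 of 514 were higher, 9 of them in all pairs and 0 by either other test. ERVK internal regions had 21 of 46 higher, 4 with equal weights and 8 by quasi-likelihood, and a median log2 fold change of 0.48. ERV1 internal regions had 9 of 25, 1 with equal weights and 3 by quasi-likelihood. Over all loci, the ERVL LTRs had 0 of 92 called in the limma fit (3 with an unadjusted p under 0.05) and the ERVL-MaLR LTRs 0 of 52 (0). Outside genes, the ERVL-MaLR species rose as most others did, as given below.

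IAP elements, a young family that still transposes in some mouse strains, held most of the largest fold changes. IAPLTR4_I had 0, 2.99, 3.99, 0.699 and 1.36 CPM in P4 and 13.4, 63.3, 36.8, 115 and 71.2 CPM in P5, a log2 fold change of 4.79 (SE 0.44; FDR 1.08e-24, 0.0363 with equal weights, 0.0110 by quasi-likelihood). All P5 libraries lay above all P4 libraries, but its P4 mean of 1.81 CPM was under the minimum, which it passed through P5. IAPLTR3-int went from 48.1, 18.9, 30.7, 29.1 and 46.2 CPM to 102, 135, 133, 239 and 248, again without overlap, by 2.74 (SE 0.23; 0.0489 with equal weights, 0.00810 by quasi-likelihood). IAPEY5_I-int (3.55, SE 0.34) and IAPEy-int (2.05, SE 0.25) were higher in all 5 pairs in the weighted fit but had an FDR of 0.0807 and 0.0685 with equal weights. Of 10 IAP internal regions 6 were higher, 5 of them in all pairs, with a median of 0.96, against 10.8% of all species. With equal weights 2 of the 10 were higher, and 2 by quasi-likelihood. Of 15 IAP LTRs 5 were higher in the weighted fit and 0 by either other test. IAPEY5_LTR (1.66) and RLTR13D (1.86) were also among the 8 largest, but had an FDR of 0.975 and 0.853 with equal weights and lost their call without replicate 6.

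MuRRS-int, an ERV1 element related to murine leukemia viruses, had 38.6, 78.0, 91.2, 123 and 84.3 CPM in P4 and 455, 316, 276, 394 and 625 CPM in P5. It was higher by 1.91 on the log2 scale (SE 0.19; FDR 0.0363 with equal weights, 0.0414 by quasi-likelihood), and its groups did not overlap. The ETn elements are non-coding retrotransposons mobilised by the proteins of their relative MusD. ETnERV3-int went from 300.002, 175, 239, 330 and 120 CPM to 457, 620, 488, 1120 and 764, by 1.70, with an FDR of 0.00466 by quasi-likelihood and 0.0814 with equal weights. MMETn-int had 129, 302, 320, 358 and 308 CPM in P4 and 299, 837, 845, 1372 and 1273 in P5, by 1.58 (SE 0.17; 0.0489 with equal weights, 0.00466 by quasi-likelihood). Only P5 library 5 reached into the P4 range. RLTR10-int as a whole had 465, 831, 717, 773 and 498 CPM in P4 and 1283, 1974, 1468, 3530 and 2896 in P5, by 1.47 (SE 0.16; 0.0489 and 0.00466). These last 2 species and MMERVK10C-int (1.12; 0.117 with equal weights, 0.00865 by quasi-likelihood) lay outside the 8 with the largest fold change and were named after their values were seen, because they passed a second test.

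**Figure D3:**
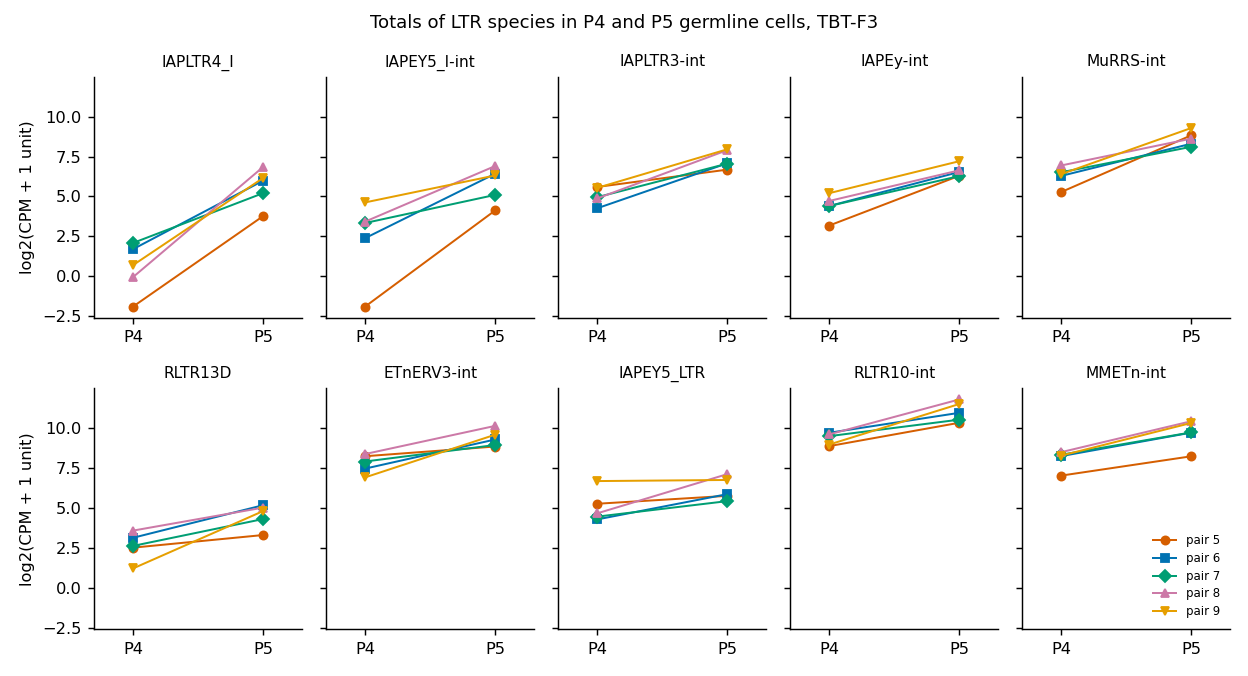
Totals of 10 LTR species in P4 and P5 as log2(CPM + 1 unit), with lines joining the 2 libraries of each pair. IAPLTR4_I, IAPLTR3-int, IAPEy-int, MuRRS-int, ETnERV3-int and RLTR10-int show no overlap between P4 and P5, whereas IAPEY5_I-int, MMETn-int, RLTR13D and IAPEY5_LTR do.

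Further families are given by their counts in the weighted fit, to be read against 10.8% of all species, and most of these calls were lost in the other fits. Of 13 MMERVK10 and RLTR10 species 8 were higher (median 0.59), 1 with equal weights and 2 by quasi-likelihood. Of 5 ETn and MusD species 3 were higher (1.00), 1 with equal weights and 2 by quasi-likelihood. Of 8 RLTR44 and RLTR45 species 5 were higher (0.68), and of 18 MuRRS, MURVY and MuLV species 5. With equal weights 0 and 1 of these were, and 1 and 1 by quasi-likelihood. Of 20 ERVB species 5 were higher and of 5 VL30 and RLTR6 species 2, in each family 0 with equal weights and 1 by quasi-likelihood. Of 19 RMER16 and RMER17 species 5 were higher and of 2 MMERGLN species both (0.79), 0 of either by both other tests. Of 9 RLTR1 species 3 were higher, 0 with equal weights and 1 by quasi-likelihood. Of 15 MMERVK9 and RLTR9 species 2 were higher and of 23 RLTR13 species 2, 0 of either by both other tests. MERVL and its LTR MT2_Mm, known for expression in cleavage-stage embryos, had 0 of 3 species called in the limma fit (median -0.20; 0 with an unadjusted p under 0.05), and the ancient MLT1 elements 0 of 51 (2). The 5 lower species with the lowest p were LTR9A1 (-0.97, FDR 0.0422), MER34B-int (-0.43, 0.0422), MER21-int (-0.36, 0.164), MLT1B-int (-0.41, 0.166) and RLTR53B_Mm (-0.36, 0.186). None of them was lower in all 5 pairs with a called difference, and LTR9A1 turned to 1.34 with equal weights.

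Species differed by how much of their signal lay outside genes. Because a rise outside genes raises this share in the same libraries, the share was taken from the 12 P4 libraries of the F1 generation, which the fit did not use, a choice made after seeing the data. With under 5% of the signal outside, 5 of 446 species were higher. From 5 to 20% it was 33 of 153, from 20 to 40% 16 of 28, and over 40% 16 of 21, with a median log2 fold change of 1.12. Over the 648 species this share and the fold change had a Pearson correlation of 0.67 and a Spearman correlation of 0.67. All species come from the same libraries, and a total with more signal outside genes takes up more of the shift outside genes given next. These values are therefore descriptions and add no support to that shift.

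Totals over loci outside genes alone were higher in P5 for 472 of 535 species (88.2%) and lower for 0 (0 at an unadjusted p under 0.05), and with equal weights for 198 (37.0%). The median over all 535 was 1.56 on the log2 scale, 1.12 with equal weights, so a species stands out only as far as it exceeds that shift. The minimum was set on the mean of all 10 libraries, and a total could pass it through P5 alone. With the same minimum on the mean of the F1 P4 libraries, which the fit did not use, a choice made after seeing the data, 381 of 427 were higher and 0 lower, with a median of 1.49 and 170 higher with equal weights. The medians of single pairs were 0.13, 1.66, 0.87, 1.93 and 0.96 for pairs 5 to 9. Internal regions had a median of 1.93 (95 of 101 higher), ERVK internal regions 2.08 (42 of 43) and IAP internal regions 3.52 (9 of 9, 7 of them with equal weights). The ERVL-MaLR species, which include MLT1, had 1.41 (79 of 84 higher, 30 with equal weights), near the median of all. IAPEz-int, the most numerous full-length IAP type, had 56.2, 9.95, 9.38, 34.7 and 34.7 CPM outside genes in P4 and 616, 533, 308, 930 and 735 in P5. That is a log2 fold change of 5.21 (SE 0.31; FDR 0.000111 with equal weights), without overlap. Over all its loci, most of whose signal lay in genes, the species had means of 3485 and 3614 CPM and a log2 fold change of 0.05 (SE 0.15; FDR 0.927). Outside genes IAPLTR4_I had 5.59, IAPEy-int 5.17, RLTR10-int 4.1 (means of 139 and 1446 CPM), IAPEY3-int 3.62, IAPEY5_I-int 3.52, MMETn-int 3.31, MMERVK10C-int 3.28 and MuRRS-int 2.71. MERVL-int, at -0.20 over all loci, had 2.38 outside genes, and MER34B-int had the lowest value of all, -0.45.

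**Figure D4:**
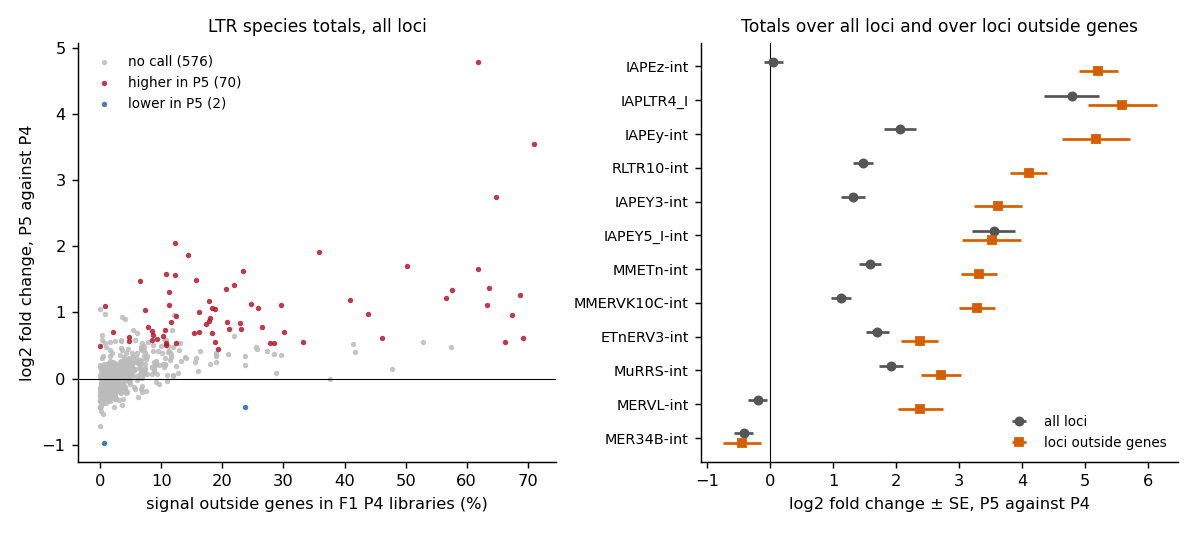
Left, log2 fold change of each of 648 species totals against the percentage of its signal outside genes in the F1 P4 libraries, with called species coloured. Right, log2 fold change with its SE for named species over all loci (circles) and over loci outside genes (squares); IAPEz-int moves from 0.05 to 5.21.

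The same order of P5 and P4 was found in the other groups, set side by side here without a test. Of the 29 species higher in all 5 pairs, 25 (86.2%) were higher in all 4 F3 DMSO pairs, against 85 of all 648 species (13.1%). In the F1 generation 28 of the 29 were higher in all 7 TBT pairs, against 115 of 648, and 28 in all 4 DMSO pairs, against 120. For 23 (79.3%) it held in all 3 groups, against 50 of 648 (7.72%). Of the 198 outside-gene totals higher with equal weights, 182 (91.9%) were higher in all 4 F3 DMSO pairs, against 374 of 535 (69.9%). The F3 DMSO libraries were normalised together with the TBT libraries and the F1 libraries separately.

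Among single loci, 92457 averaged 5 units or more and were tested. In P5, 7186 were higher (7.77%) and 563 lower (0.609%), with 952 higher in all 5 pairs (1.03%) and 25 lower in all 5 pairs (0.0270%). With each pair taken relative to its own median over loci, a choice made after seeing the data, these were 596 and 61. With equal weights 12 were higher, and by quasi-likelihood 881 were higher and 5 lower. In the weighted fit without replicate 9 no locus passed (13765 had an unadjusted p under 0.05), whereas without replicates 5 and 9 together 28161 passed, 7723 of them among the 7749 called with all pairs. With median-ratio scaling the higher share of calls was 56.6% of 26196, against 92.7% of 7749. A locus outside genes could pass the minimum through P5 alone and then had to differ, so the shares by position that follow are descriptions, and no difference between positions is read from them. Outside genes 2867 of 10421 tested loci were higher (27.5%) and 182 lower (1.75%), and 593 were higher by quasi-likelihood. In introns 3653 of 75364 were higher (4.85%) and in exons 666 of 6672 (9.98%). In introns 20982 of 61741 neighbouring tested loci (33.98%) had identical values in all 10 libraries, against 79 of 3273 (2.41%) outside genes, so intronic loci often repeat 1 measurement. Outside genes RLTR10-int had 79 of 111 tested loci higher, MMERVK10C-int 70 of 111, ETnERV3-int 36 of 57, RLTR1B-int 51 of 92 and IAPEz-int 10 of 22. MTD, an older MaLR element, had 87 of 397. By quasi-likelihood the higher loci of these 6 species numbered 51, 30, 6, 8, 6 and 11, in the order named.

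Of the other 5 loci with the largest fold change, 3 lie outside genes. An RLTR44-int element at chr6:87960452-87962385 had no read in P4 and 15.3, 12.8, 28.3, 5.61 and 25.2 CPM in P5, at least 123-fold higher against a floor of 3 reads over the P4 group. It had an FDR of 0.0267 with equal weights and was at 0 in P6 and in P4 of the F3 DMSO lineage. In the F1 generation its P4 mean was 0.563 CPM in the TBT and 4.57 in the DMSO lineage. There a DMSO P4 library reached 12.3 CPM, against 6.77 to 15.0 in DMSO P5. An ETnERV2-int fragment at chr7:13898557-13898955 had 4 reads in P4 and 345 in P5, a ratio of 92.3 (35.7 to 341), with an FDR of 0.0765 under equal weights and 0.00808 by quasi-likelihood. An IAPEz-int element at chr5:30223381-30229822 had 12 and 482 reads, a ratio of 42.97 (24.4 to 83.7), and 42.2 CPM in P6. Its FDR was 0.0624 with equal weights and 0.00573 by quasi-likelihood. The remaining pair are intronic MaLR elements. ORR1D1 at chr2:120569620-120569794 in Snap23, which codes for a SNARE protein of membrane fusion, had 26 and 420 reads, a ratio of 17.3 (11.6 to 26.8). Its FDR was 0.153 with equal weights and 0.0164 by quasi-likelihood. MTE2a at chr2:148837393-148837536 in Cst9 had 5 and 427 reads, a ratio of 91.4 (38.8 to 283), and 202 CPM in P6, with an FDR of 0.0267 under equal weights. Of these 5 loci, all but ORR1D1 had a P4 mean under the minimum and passed it through P5 alone, so their FDRs are descriptions.

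Lower loci were fewer and less firm. The 8 with the largest fold change had values between -2.45 (ORR1A2, chr11:114532673-114533059) and -2.11 (RLTR9F on chromosome 9). None passed with equal weights, and RMER19B at chrX:104715318-104716232 was the only one to pass by quasi-likelihood (-2.25, FDR 0.0488). Its P4 values were 43.3, 0.663, 0.938, 3.49 and 51.0 CPM, highest in the 2 shallow libraries 5 and 9, and its P5 values lay between 0 and 4.102.

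The signal of all LTR loci inside a gene was summed as a readout of RNA over that gene, exonic or intronic and without strand. Of 9372 genes with a mean of at least 20 units, 1273 were higher in P5 (13.6%) and 160 lower (1.71%), 336 higher in all 5 pairs (3.59%) and 9 lower in all 5 pairs (0.0960%). Relative to the median gene of each pair, which was 2.46 in pair 9, these were 212 and 20. With equal weights 0 genes passed (599 with an unadjusted p under 0.05) and by quasi-likelihood 0 (421), against 115 by the likelihood ratio test and 255 by DESeq2. The gene results that follow are those of the weighted fit, in which pair 6 had most of the weight. The median over all genes was 0.03.

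Genes of the endoplasmic reticulum and the unfolded protein response were higher in P5 in the weighted fit in 13 of 29 tested members, against 13.6% of all genes. Of the 29, 0 were lower and 6 were higher in all 5 pairs, with a median log2 fold change of 0.90. With equal weights and by quasi-likelihood 0 of them passed (16 had an unadjusted p under 0.05 in the weighted fit). All 13 were higher in P5 and above the median gene in pairs 6, 7 and 8. These pairs carried most of the weight by which the 13 were called, so their signs there were nearly given. Of all 29 members, 26, 23 and 21 lay above the median gene in pairs 6, 7 and 8. In pair 9 all 13 were higher as well, but 9 of them were above the median gene, as were 20 of the 29 members. In pair 5, 7 of the 13 were not higher, 5 being at 0 in the shallow P5 library 5. Of the 29 members 7 were above the median gene in that pair. Uggt1, which senses misfolded glycoproteins, had 5.42, 43.8, 27.4, 30.3 and 5.44 CPM in P4 and 26.8, 222, 276, 145 and 187 CPM in P5, a log2 fold change of 2.45 (SE 0.36, FDR 0.000106). Its groups overlapped only through P5 library 5. Sel1l, part of the machinery that removes misfolded proteins, had 2.24 (FDR 0.000473). The disulfide isomerases Pdia4, Pdia6 and Pdia3 had 3.12, 2.00 and 1.84, and the reductase Dnajc10 1.94. Bcap31, a membrane protein that sorts cargo for export, had 48.8, 205, 326, 349 and 122 CPM in P4 and 63.1, 768, 449, 1379 and 795 in P5 (1.76, SE 0.32). Sec63 of the protein translocation channel had 34.5, 526, 447, 459 and 240 CPM in P4 and 39.2, 1164, 1300.5, 797 and 843 in P5 (1.13, SE 0.29). The oligosaccharyltransferase subunits Stt3a, Rpn1 and Ddost had 1.88, 1.1 and 0.90, the chaperone Canx 1.72 and the stress sensor Ern1 1.34. In the F3 DMSO lineage the means of all 13 were higher in P5 as well. Several are abundant in somatic cells: Stt3a had 496 CPM in P6 and Pdia4 404.

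**Figure D5:**
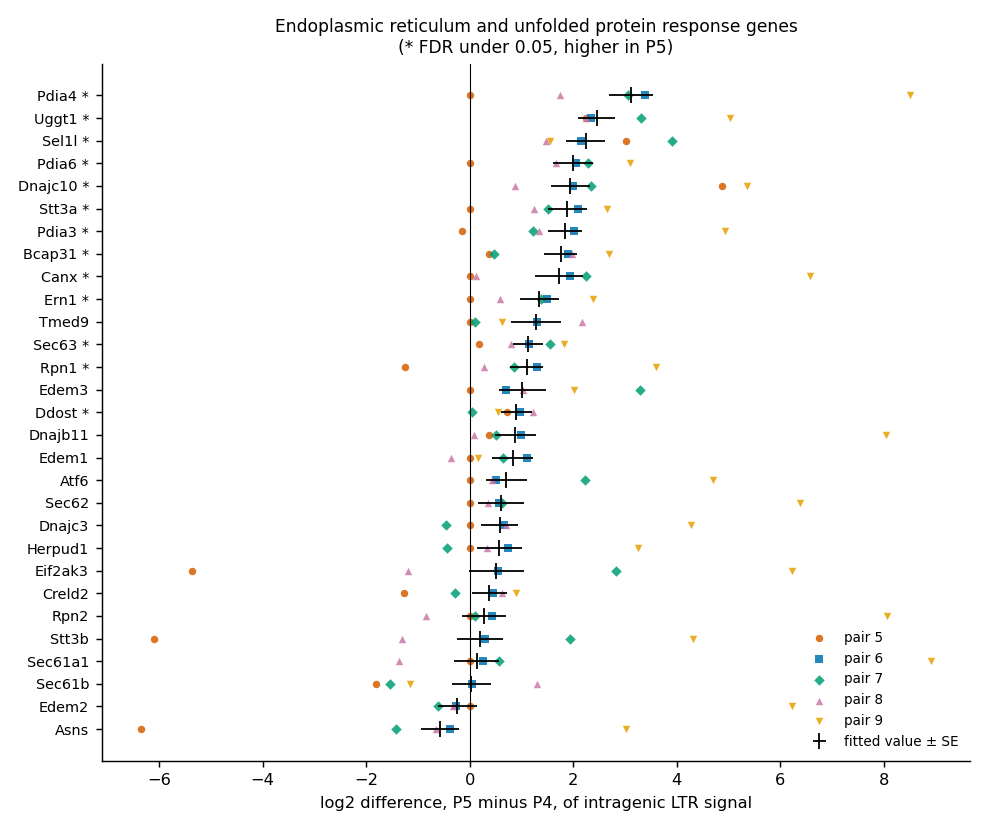
Log2 difference of P5 minus P4 in intragenic LTR signal for the tested genes of the endoplasmic reticulum list, 1 symbol per pair, with the fitted value and its SE in black. Asterisks mark the 13 genes with an FDR under 0.05; pair 5 lies at or left of 0 for 7 of them.

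Germ cell and piRNA genes did not share this direction. Of 15 germ cell genes 1 was higher and 1 lower (median -0.57, 9 with an unadjusted p under 0.05), and of 17 piRNA genes 1 and 1 (median -0.46, 8). Of all genes 13.6% were higher and 1.71% lower, so no result about either list is read from these calls. The lists share 7 tested genes, and the lower gene, Tdrd1, is the same in both. Mov10l1, the RNA helicase that feeds piRNA precursors to the pathway, had 0, 668, 463, 370 and 123 CPM in P4 and 157, 1807, 1993, 914 and 887 in P5, higher by 1.61 (SE 0.37, FDR 0.00460) in all 5 pairs. Kit, the receptor for stem cell factor, was higher in all 5 pairs as well (1.55, FDR 0.0104), with 0 to 36.5 CPM in P4 and 17.2 to 183 in P5. Tdrd1, a tudor protein that binds PIWI proteins, had -1.55 in the fit (FDR 0.0358) but lower in 3 of 5 pairs only. The 5 members of each list with the highest mean signal did not pass: Mael had -0.46, Morc1 -0.63, Stk31 -0.57, Tdrd9 -0.74, Ddx4 -0.96, Fkbp6 -0.38 and Gtsf1 -0.06. Of 27 genes of DNA methylation and retrovirus silencing 2 were higher (median -0.09), a share below the 13.6% of all genes. Cbx1, a heterochromatin protein, was higher by 1.49, and Spocd1, which links piRNA to DNA methylation, by 4.05. Spocd1 had 0 to 0.995 CPM in P4 and 0 to 21.4 in P5. Of these 2, Cbx1 was higher in all 5 pairs.

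Markers of somatic cells were measured in the same way, with counts of the weighted fit to be read against 13.6% of all genes. With equal weights and by quasi-likelihood none of their genes passed. Of 9 tested Sertoli cell genes 5 were higher and 0 lower: Cst9 by 6.5, Inha (inhibin alpha) by 4.62, Aard by 2.28, Mro by 1.98 and Gata4 by 1.39. Cst9, a cystatin, had 0, 0.498, 0.235, 3.49 and 0 CPM in P4 and 247, 72.7, 35.5, 226 and 93.2 in P5 (FDR 1.58e-08, 0.252 with equal weights), and 798 CPM in P6. The summed level of 17 Sertoli genes ranged from 0 to 1031 CPM in P4 (median 794), 276 to 968 in P5 (681) and 2915 to 4210 in P6 (3529), and Dmrt1, which germ cells also express, gave most of the sum in libraries 6, 7 and 8 of P4 and 6, 7 and 9 of P5. Without Dmrt1, a choice made after seeing the data, the sum of the other 16 genes was 0, 84.8, 77.4, 97.6 and 27.9 CPM in P4 and 276, 227, 180.4, 385 and 292 CPM in P5, with a mean of 3034 CPM in P6. So computed, it was higher in P5 in 5 of 5 pairs without overlap, against 3 of 5 pairs with Dmrt1 kept. Cst9 alone gave 247 of the 276 CPM in P5 library 5 and 226 of the 385 CPM in library 8. No lack of overlap of the list apart from Cst9 is read from this sum. The Leydig list had 0 of 3 called (0 with an unadjusted p under 0.05) and medians of 260.1, 225 and 1168 CPM in P4, P5 and P6. The interstitial and vascular list had 2 of 6 higher (Nr2f2 and Cdh5, of which Nr2f2 had a lower mean in P5, 4.54 CPM, than in P4, 6.46) and medians of 88.5, 152 and 927. The blood and macrophage list had 1 of 2 higher, Cx3cr1 by 4.27, and medians of 20.3, 36.4 and 58.8, higher in P5 in 5 of 5 pairs. The part of such cells in the P5 values was not tested. At the RLTR10-int copies on chromosomes 15, 19 and 8 and at the RLTR44-int element, P6 held no read. Several species totals were above P4 in P6 as well: the mean in P6 was 36.8 CPM for IAPLTR4_I (P4 1.81), 53.9 for IAPEy-int (22.7), 66.9 for IAPLTR3-int (34.6) and 22.1 for RLTR13D (6.68). RLTR10-int as a whole had 1099 CPM in P6. Others were not, with 51.6 CPM in P6 for MuRRS-int (P4 83.0), 229 for ETnERV3-int (233) and 1.62 for IAPEY5_I-int (9.95). P6 was normalised separately, and the part of such cells in the species totals was not tested.

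In the other lists the share of higher genes lay close to or below the 13.6% of all genes, and no result about these lists is read from it. Of 18 lysosome and autophagy genes 3 were higher: the cathepsin Ctsb by 1.91, the cholesterol transporter Npc1 by 2.77 and Lamp2 by 1.38. Of 24 meiosis genes 2 were, Sycp2 of the synaptonemal complex by 1.71 and Hormad2 by 1.44. Of 22 proliferation genes Birc5 was higher (1.31) and Tpx2 lower (-1.22). Cell cycle arrest genes had 0 of 9 called (2 with an unadjusted p under 0.05) and p53 and apoptosis genes 0 of 13 (1). Of the immediate early genes 3 held an LTR locus and none was tested.

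The 12 genes with the largest fold change among those higher in all 5 pairs ranged from 6.56 (Sntb1, a syntrophin of the dystrophin complex) to 4.54 (Gm2824). Their P4 means were at most 4.00 CPM, under the minimum, which they passed through P5 alone. Sntb1 had 1.35, 0.166, 1.41, 14.7 and 0 CPM in P4 and 20.1, 105, 37.2, 40.1 and 35.2 in P5. Apart from Cst9 they included Cd84, a leukocyte surface receptor (5.42), Mcoln2, a cation channel of endosomes (5.12), Il1rapl1 (4.80) and the ephrin receptor Epha5 (4.68). The other 6 are predicted or unnamed genes, Gm32828 (5.57), A230057D06Rik (5.21), Gm30373 (4.65), Gm10827 (4.64), Gm8189 (4.59) and Gm2824. The 9 lower genes were Ccdc81 (-4.51), BC049352 (-2.17), Elavl3 (-1.91), 3010001F23Rik (-1.66), Lypd6 (-1.53), Ap3b1 of a vesicle coat (-1.21), Trappc9 (-1.06), the RNA helicase Ddx10 (-0.88) and Sdha, a subunit of succinate dehydrogenase (-0.84). None of the 21 passed with equal weights or by quasi-likelihood, Ccdc81 lost its call without replicate 6, and Gm8189 without replicate 6 or 8.

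Whether P5 and P4 differed otherwise in the TBT than in the DMSO lineage was tested over all 18 F3 germline libraries. At 58 of 98076 loci (0.0591%) the difference itself differed, 27 larger and 31 smaller in TBT, but at 0 with equal weights (6293 with an unadjusted p under 0.05) and 0 by quasi-likelihood (1889). Of 651 species totals 0 differed (0%; 60 with an unadjusted p under 0.05, and 0 with equal weights, by quasi-likelihood and by the likelihood ratio test). Of 9574 genes 4 differed (0.0418%), all with a smaller difference in TBT, and 0 with equal weights (367) or by quasi-likelihood (136). Slc24a3, a sodium, potassium and calcium exchanger, had means of 12.7 CPM in P4 and 49.2 in P5 of the TBT lineage and of 0 and 100.2 in the DMSO lineage (FDR 0.00858). The means in TBT and then in DMSO were 9.21 to 14.4 and 0 to 36.0 for Gm9655, 17.3 to 43.9 and 0.425 to 61.6 for Nav2, and 5.71 to 11.5 and 0 to 27.7 for Il1rap.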

How the data were processed

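RNA of FACS-separated cells was reverse transcribed from an oligo(dT) primer, and the strand of a read was not used. The authors trimmed reads with Trim Galore, aligned them with STAR to GRCm38/mm10 and counted them per RepeatMasker LTR locus with a modified ERVmap. The deposited values are a normalized signal, which the authors describe as counts normalised by TMM without naming CPM. They were whole multiples of 1 read in 100% of values (tolerance 0.01 read), so reads were recovered, from 246520 to 7216887 per library. The values were read as CPM divided by a TMM factor: the factors this implies had a geometric mean of 1.0 over the 18 F3 germline libraries, as TMM factors have by construction (0.9945 in the F1 table). Loci were placed in genes with GENCODE vM21 on GRCm38. File starts count from 0, and 69.6% of 12505 LTRs began with TG and ended with CA when read that way.

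Log2(CPM + 1 unit) was fitted with limma 3.58.1 in R 4.3.3 (trended variance, pair as block, 1 weight per pair), with the Benjamini-Hochberg FDR over all features tested, for loci that averaged 5 units or more and genes and species that averaged 20 or more. Fold changes are on that scale and understate those of low features. Alternatives were equal weights, other scalings, pseudocounts and minimums, each replicate left out, and edgeR 4.0.16 (quasi-likelihood and likelihood ratio) and DESeq2 1.42.0 on recovered reads. The likelihood ratio test is the one the study names. Named features were the 8 loci, 12 genes and 8 species per direction with the largest fold change among those with an FDR under 0.05 and 1 sign in all 5 pairs, at most 1 locus per gene or per 10 kb. Where fewer than 3 passed, the 5 with the lowest p were named. The comparison, the gene lists and the rules were chosen with earlier results of these data known. Tables of the F1 generation and of P6 cells were normalised separately by the authors. The MBD tables were not used here.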

Additional observations from a re-analysis of the deposited data

Results flagged for a closer look

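In the total of IAPEY5_LTR, P4 library 9 stood apart from the other 4 P4 libraries, at 101.9 CPM where the next highest had 37.9, a gap of 0.773 of the range. The share of reads outside annotated genes in P5 library 5 was 31.1%, with 11.9% the next highest, a gap of 0.767 of the range. It is the library with the fewest reads. Both passed Dixon's 95% limit for 5 samples. Such gaps were looked for in 18 groups of values, of which chance passes about 1 in 20.

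The difference of P5 against P4 differed between the F3 TBT and DMSO lineages, by the interaction term of the limma fit, at 58 LTR loci and in 4 genes. The genes were Slc24a3, Gm9655, Nav2 and Il1rap, and in all 4 the DMSO P4 libraries were at or near 0. Neither count held with equal weights, where both were 0.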

How the results depend on the processing

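Fold changes kept their direction far more often than their calls. Of 998 recomputed values of named features, 682 stayed on their side of the threshold, 302 kept the direction and lost the call, 8 gained it and 6 reversed. LTR9A1 turned from -0.97 to 1.34 with equal weights, 0.60 by quasi-likelihood, 0.88 by likelihood ratio and 0.91 by DESeq2, and ranged from -1.12 to 0.046 with 1 replicate left out (positive without 6). RLTR53B_Mm, at -0.36, turned to 1.19 over loci outside genes only. The cause was not tested.

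Loci called numbered 7749 (92.7% higher). Without the replicate block there were 3531, with equal weights 12, without a filter 581, with median-ratio scaling 26196 (56.6% higher), by quasi-likelihood 886, by likelihood ratio 3922 and by DESeq2 677. Leaving out 1 replicate gave 0 (without 9) to 40901 (without 5, 55.3% higher), and 67.2% were higher without 7. With a minimum 4 times higher, 52.9% of 6242 calls were higher. Without replicates 5 and 9 together, a choice made after seeing the data, there were 28161 (57.3% higher), 0 with equal weights (9017 with an unadjusted p under 0.05) and 628 by quasi-likelihood.

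Genes called numbered 1433 (88.8% higher). Without the replicate block there were 748, with equal weights 0, without a filter 1, with a minimum 4 times higher 528, by quasi-likelihood 0, by likelihood ratio 115 and by DESeq2 255. Leaving out 1 replicate gave 378 to 2360. Chosen after seeing the data, the fit without replicates 5 and 9 gave 2338 (70.3% higher), 33 with equal weights and 1 by quasi-likelihood, and the highest locus per gene gave 607.

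Species called numbered 72 (97.2% higher). Without the replicate block there were 39, with equal weights 5, with all 18 libraries 40, with median-ratio scaling 37, by quasi-likelihood 12, by likelihood ratio 33 (81.8% higher) and by DESeq2 47 (68.1%). Leaving out 1 replicate gave 13 (without 6) to 79, and 73.3% were higher without 8. Without replicates 5 and 9 there were 192 (78.1%), and 23 with equal weights. Loci outside genes gave 472, and 198 with equal weights. Median-ratio scaling moved the median of all species from 0.04 to -0.09.

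The difference between lineages passed at 17 loci and 9 genes by likelihood ratio, at 0 of both with equal weights or quasi-likelihood, and in 2 genes with the same total per library. Leaving out 1 replicate gave 0 to 4360 loci, 0 to 752 genes and 0 to 81 species.

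Same-numbered P4 and P5 libraries correlated in their deviations from the group means by 0.30, 0.44, 0.39, -0.11 and -0.16 over genes for numbers 5 to 9, and 2 of 5 correlated best with their own number. The data therefore do not show that the numbers pair the libraries, and the fit with the replicate block follows the chosen comparison. Depth limits pairs 5 and 9 most.

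The counts with 1 sign in all pairs were also taken relative to each pair's median and over pairs 5 to 8 only, both chosen after seeing the data. Genes higher in all pairs went from 336 to 212 and 382, and lower ones from 9 to 20 and 25. Loci higher in all pairs went from 952 to 596 and 1153, and lower ones from 25 to 61 and 89. Species lower in all pairs went from 0 to 1 and 0.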
